A study of Homo sapiens with 12 samples.

Results

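The levels of 10 Notch pathway genes were followed in human cancer cell lines: the receptors NOTCH1, NOTCH2, NOTCH3 and NOTCH4, the ligands JAG1, JAG2 and DLL1, and the target genes HES1, HEY1 and HEYL. They were picked by gene name, and all 10 were found among the 57500 genes of the count table. Total RNA depleted of ribosomal RNA was sequenced from 12 libraries in 4 groups of 3 biological replicates. SW480 and SW620 are colorectal cancer lines derived from the primary tumour and from a metastatic site of the same patient, and both were untreated and grown in DMEM with serum. The ovarian cancer line PEO4 was kept in RPMI with serum, either in control medium or with TGF-β at 10 ng/mL for 6 days. Each group is 1 line, so the colorectal comparison sets one line against another and is not a comparison of primary with metastatic tumours in general. Between PEO4 and the colorectal lines, the line, the tissue and the medium cannot be told apart.

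Notch receptors sit in the cell membrane and are switched on by ligands on neighbouring cells. Binding leads to cleavage by an ADAM protease and then by γ-secretase, and the freed intracellular part enters the nucleus, where it joins the DNA-binding protein RBPJ and a Mastermind coactivator at target genes such as those of the HES and HEY families. In the gut, the pathway is known for keeping progenitor cells undifferentiated and for holding back the secretory cell types.

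Total counts ranged from 14531420 to 22028956 per library, and a count of 3, taken as the floor of detection, was equal to 0.144 to 0.179 CPM. CPM are the usual depth-scaled counts, here scaled by edgeR's TMM factors over all 12 libraries. The summed level of 6 intestinal markers was 49.0 to 74.5 CPM in SW480, 338 to 521 CPM in SW620 and at most 3.57 CPM in PEO4, where CDX1, CDX2, CDH17 and GPA33 were at or under the floor. The summed level of 6 ovarian and Müllerian markers was 5340 to 8980 CPM in PEO4 control, 2996 to 4764 CPM with TGF-β and 105 to 172 CPM in the colorectal libraries. Of these markers, 3 fell with TGF-β at an adjusted p under 0.05 (WT1, MSLN and EMX2, by 0.47, 0.77 and 0.49 on the log2 scale). Over all 19064 genes tested, 189 fell and 242 rose, 2.26% in either direction. MUC16, by far the most abundant of the 6, was at 5713 ± 1840 CPM in control and 2391 ± 981 CPM with TGF-β (SD, n = 3). Its log2 fold change of -1.27 ± 0.30 (SE) did not pass (edgeR adjusted p = 0.0701). Of 8 genes listed to check the treatment, 3 rose with TGF-β, against the same 242 of 19064 over all genes. TGFBI was among them and rose by 2.33 ± 0.25 (log2, SE; edgeR adjusted p = 0.00266). One library stood apart: in SW620 replicate 3, 96 genes that were at 5 CPM or more in every PEO4 library and at no more than 3 counts in the other colorectal libraries reached 1.21% of their PEO4 level. The other 5 colorectal libraries were at 0.350% to 0.539% by the same rule, on 46 to 49 genes each. Each library had its own gene set, drawn by low counts in the other 5 with its own level left free. A gene high in 1 colorectal library alone could thus enter only that library's set, so the percentages rest in part on this choice. So do the shares of NOTCH2, NOTCH3 and TLE1 counts given below. The limits of 5 CPM and 3 counts were set after the data were seen.

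The 250 bases before the start of transcription are shown for the target genes HES1 and HEYL and for HES5 and HEY2, other genes of the same families that differ between the colorectal lines below. They come from the RefSeq promoter table on GRCh38.p14, which held 8 of the 10 genes (not DLL1 and HEY1). Capitals mark TGGGAA, the core sequence that RBPJ binds, or its reverse complement. The windows are chr3:194135898-194136147 on the plus strand for HES1, chr1:39639644-39639893 on the minus strand for HEYL, chr1:2530264-2530513 on the minus strand for HES5 and chr6:125749382-125749631 on the plus strand for HEY2.
HES1: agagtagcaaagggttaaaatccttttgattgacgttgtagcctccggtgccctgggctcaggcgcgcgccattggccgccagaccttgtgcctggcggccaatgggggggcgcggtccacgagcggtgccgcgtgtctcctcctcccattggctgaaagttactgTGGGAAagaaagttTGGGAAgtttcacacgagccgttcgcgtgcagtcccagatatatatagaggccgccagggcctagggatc
HEYL: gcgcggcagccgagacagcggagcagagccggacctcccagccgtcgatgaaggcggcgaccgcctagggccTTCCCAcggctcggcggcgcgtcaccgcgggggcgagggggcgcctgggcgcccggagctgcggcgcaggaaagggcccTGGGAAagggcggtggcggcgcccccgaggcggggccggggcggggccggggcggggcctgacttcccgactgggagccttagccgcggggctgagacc
HES5: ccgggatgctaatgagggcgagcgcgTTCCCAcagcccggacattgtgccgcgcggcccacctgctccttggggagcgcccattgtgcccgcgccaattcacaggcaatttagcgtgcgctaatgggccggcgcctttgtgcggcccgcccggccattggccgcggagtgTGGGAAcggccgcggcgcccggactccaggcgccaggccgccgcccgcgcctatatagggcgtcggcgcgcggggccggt
HEY2: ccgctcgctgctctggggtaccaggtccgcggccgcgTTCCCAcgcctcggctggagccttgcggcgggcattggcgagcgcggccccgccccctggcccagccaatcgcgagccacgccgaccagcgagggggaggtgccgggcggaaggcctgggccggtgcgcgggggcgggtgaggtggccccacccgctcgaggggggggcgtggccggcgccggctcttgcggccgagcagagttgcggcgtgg

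On both strands, TGGGAA was found in 2 of the 8 promoters, those of HES1 and HEYL, and in 20.8% of 35114 promoter windows of the same length. HES1 holds the 2 matches in the same orientation, starting 84 and 70 bases before the start of transcription. In HEYL a reversed match starts 178 bases and a forward match 99 bases before it. These distances are counted from the start in the RefSeq table. GENCODE 29, used for the gene positions below, starts HEYL further upstream, at base 39639945. The HEYL window thus lies inside the gene as annotated there. The longer word GTGGGAA, which contains the first, was found in the same 2 promoters and in 5.43% of all windows. HES5 holds a reversed match at 224 and a forward one at 80 bases, and HEY2 a reversed match at 213 bases. The windows of NRARP and DLL4, which also differ between the colorectal lines, hold 0 matches. The N-box CACNAG, bound by HES proteins, was found in NOTCH3, NOTCH4 and HES1 and in 32.0% of all windows. These are matches of letters, and no binding was measured here.

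In SW620 compared with SW480, 4 of the 10 genes passed edgeR's quasi-likelihood test at an adjusted p under 0.05, against 30.5% of the 20941 genes tested. JAG1 rose, and NOTCH2, DLL1 and HEYL fell. The groups did not overlap for 7 of the 10, against 43.6% of all genes tested. The median log2 fold change of the 10 was -0.01, beside 0.03 over all genes tested. In bulk RNA, fewer cells with a transcript and less of it per cell cannot be told apart. The authors' deposited table of the same comparison listed all 10 and put the same 4 past an adjusted p of 0.05.

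NOTCH2 (ENSG00000134250, GRCh38 chr1:119911553-120069626, minus strand, protein coding), a receptor for Delta-type and Jagged ligands, fell most of the 10. Its level was 267, 169 and 262 CPM in SW480 replicates 1 to 3 and 13.8, 14.2 and 24.9 CPM in SW620. Every SW620 library was far below every SW480 library, and the highest SW620 value was in the replicate that stood apart. The log2 fold change was -3.75 ± 0.29 (SE, 95% interval -4.41 to -3.09), a 13.5-fold lower level (edgeR adjusted p = 2.46e-05). At 1.21% of its PEO4 level NOTCH2 would have 203 counts in SW620 replicate 3, which is 39.3% of the 517 counted there. At the lower percentages of SW620 replicates 1 and 2 the shares were 20.7% and 20.6%, and in SW480 they were at most 2.57%. The log2 fold change was -4.08 when that library was left out. The genome also holds near-identical copies of part of NOTCH2, and reads shared with them leave its level uncertain. The copy NOTCH2NL has 6443 exon bases, against 16807 in NOTCH2. Of 6 names listed for such copies, NOTCH2NLA is another name of NOTCH2NL. NOTCH2NL and NOTCH2P1 were matched to the count table by name, and the other copies were not analysed here. Of the 2 matched copies 1 was tested, NOTCH2NL. It had 35 to 68 counts in SW480 and 7 to 17 in SW620 and fell by 2.02 ± 0.48 (log2, SE; edgeR adjusted p = 0.0118).

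NOTCH1 (ENSG00000148400), the receptor most studied in intestinal crypts, was at 153, 199 and 197 CPM in SW480 and at 208, 215 and 258 CPM in SW620. The SW620 libraries were all above the SW480 libraries, by a small margin. The log2 fold change was 0.28 ± 0.18 (SE, 95% interval -0.13 to 0.69; edgeR adjusted p = 0.293), so it did not pass the test. Of the 17 alternative settings given below, NOTCH1 passed only with a replicate block and a correction for GC content together (edgeR adjusted p = 0.000418). Per kilobase of exon, which allows levels of different genes to be set side by side, the 4 receptors summed to 32.2 ± 2.94 CPM per kb in SW480 and 24.0 ± 3.29 in SW620 (SD, n = 3). NOTCH1 made up 54.9 ± 8.57% of that sum in SW480 and 91.2 ± 1.63% in SW620, while NOTCH2 made up 42.8 ± 8.61% and 4.29 ± 0.900%. These shares depend on the length used. All exons span 10377 bases in NOTCH1 and 16807 in NOTCH2, and their longest transcripts 9306 and 11389. Before scaling by length, the SW480 means were 183 CPM for NOTCH1 and 232 CPM for NOTCH2. The order of NOTCH1 and NOTCH2 in SW480 thus rests on the length chosen.

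The other receptors were scarce in both lines. NOTCH3, best known from smooth muscle and from ovarian cancer, was at 1.59, 3.14 and 2.94 CPM in SW480 and at 2.16, 1.80 and 3.90 CPM in SW620. These values overlapped, and the difference was -0.00 ± 0.42 (log2, SE, 95% interval -0.96 to 0.96; edgeR adjusted p = 0.999). At 1.21% of its PEO4 level NOTCH3 would have 42.3 counts in SW620 replicate 3, which is 52.2% of the 81 counted there. The same measure gave 27.6% and 33.8% of the counts in SW620 replicates 1 and 2 and 21.2% to 37.0% in the SW480 libraries, and the log2 fold change without that library was -0.39. NOTCH4, a receptor known mainly from endothelium, was at 4.56, 3.14 and 6.09 CPM in SW480 and at 6.72, 6.77 and 10.4 CPM in SW620. The groups did not overlap, and the log2 fold change of 0.76 ± 0.30 (SE) missed the threshold (edgeR adjusted p = 0.0900). It passed after a correction for GC content (edgeR adjusted p = 0.0419). The summed level of 10 endothelial markers was 14.7 to 25.7 CPM in SW480 and 10.7 to 13.8 CPM in SW620. KDR was at or under the floor in both lines, CDH5 in SW480, and TIE1 and ROBO4 in SW620. Of the 5 markers tested, 1 rose and 2 fell, against 13.5% and 17.0% of all genes tested. PECAM1 rose by 4.07 ± 0.63, and EGFL7 and ROBO4 fell by 1.83 ± 0.30 and 3.30 ± 0.68 (log2, SE; edgeR adjusted p = 0.00128, 0.00173 and 0.00564). Their part in the NOTCH4 values was not tested.

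**Figure D1:**
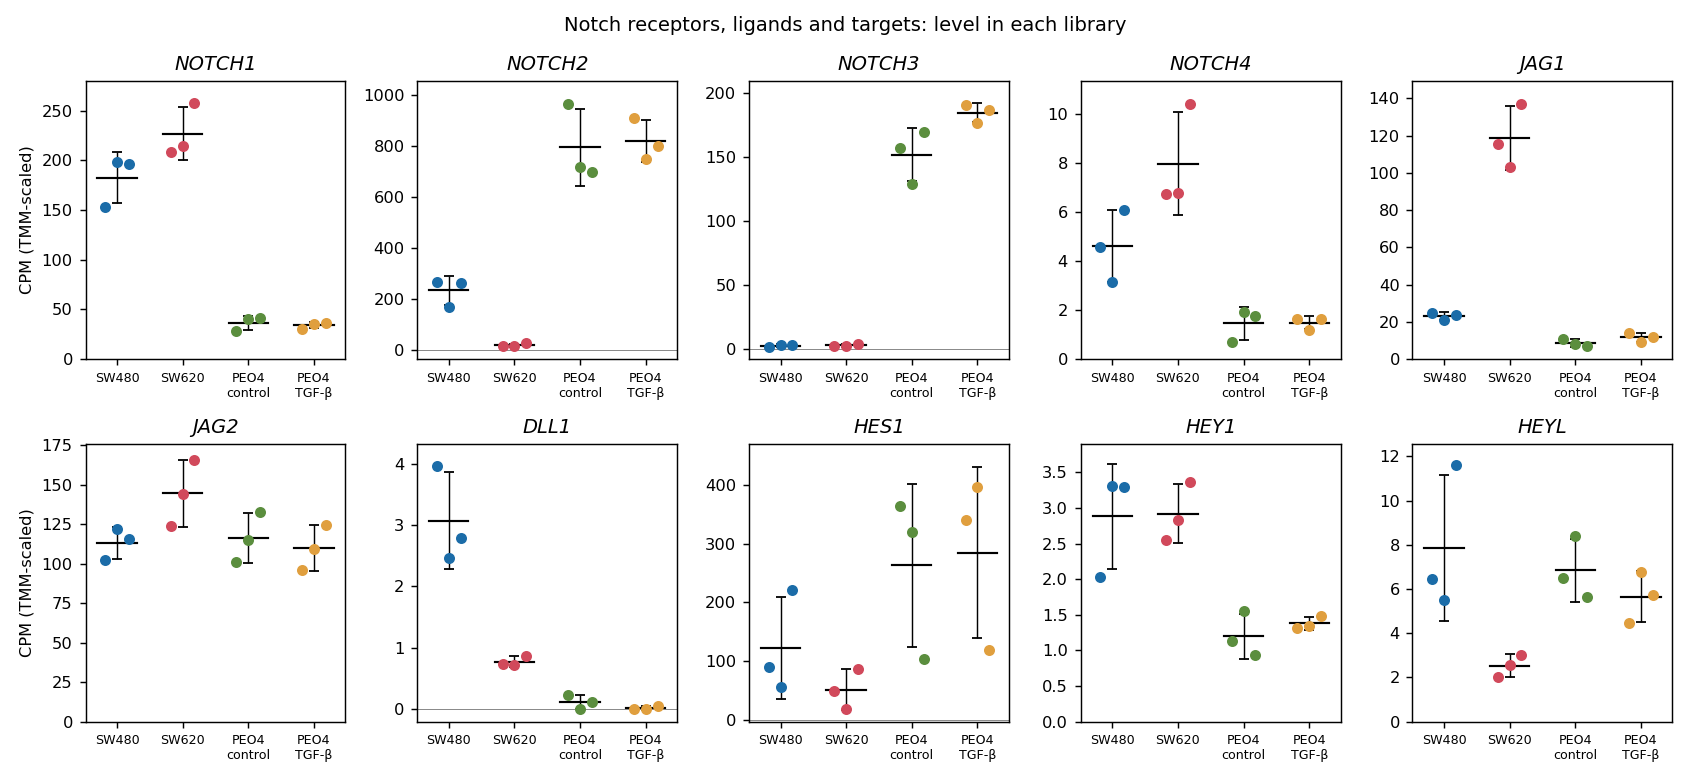
TMM-scaled CPM of each of the 10 genes (vertical axes, linear, separate scales) in every library of the 4 groups, with points for replicates, horizontal bars for means and error bars for the SD (n = 3). NOTCH2 and DLL1 are low in all 3 SW620 libraries, JAG1 is high in them, and the HES1 replicates are widely spread in every group.

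Among the ligands, JAG1 (ENSG00000101384, GRCh38 chr20:10637684-10673999, minus strand) rose and DLL1 (ENSG00000198719, GRCh38 chr6:170282206-170306565, minus strand) fell. JAG1, a Serrate-type ligand, was at 24.9, 20.9 and 23.5 CPM in SW480 and at 116, 103 and 137 CPM in SW620. Every SW620 library was well above every SW480 library. The log2 fold change was 2.33 ± 0.17 (SE, 95% interval 1.95 to 2.70), a 5.01-fold higher level (edgeR adjusted p = 1.65e-05). JAG2, the related ligand, was at 102, 122 and 116 CPM in SW480 and at 124, 144 and 166 CPM in SW620. These groups lay next to each other without overlap, and the log2 fold change of 0.32 ± 0.17 (SE, 95% interval -0.07 to 0.70) did not pass (edgeR adjusted p = 0.205). It passed narrowly after the correction for GC content (edgeR adjusted p = 0.0476).

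DLL1, a Delta-type ligand known from secretory precursors of the crypt, was a low transcript. It was at 3.97, 2.47 and 2.79 CPM in SW480, from 44 to 80 counts, and at 0.736, 0.709 and 0.867 CPM in SW620, from 13 to 18 counts. The groups were clearly apart, and DLL1 fell by 2.02 ± 0.38 (log2, SE), a 4.05-fold lower level (edgeR adjusted p = 0.00329). Per kilobase, the 3 ligands summed to 21.2 ± 1.12 CPM per kb in SW480 and 35.6 ± 4.71 in SW620 (SD, n = 3). JAG2 made up 83.7 ± 3.05% of that sum in SW480 and 63.5 ± 3.10% in SW620, and the share of JAG1 was 11.8 ± 1.65% and 35.9 ± 3.07%. The share of DLL1 was 4.55 ± 1.43% and 0.673 ± 0.0349%. The ligand shares depend on the length used as well. JAG1 has 9298 exon bases but a longest transcript of 5940, and JAG2 has 6397 and 5835. With the longest transcripts the share of JAG1 would be higher in both lines. Reads from small overlaps with other genes could not be separated: JAG2 shares 469 of its 6397 exon bases with AL512356.1 on the same strand, JAG1 79 of 9298 with AL050403.2 on the opposite strand, and NOTCH4 98 of 9748 with GPSM3 on the same strand.

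**Figure D2:**
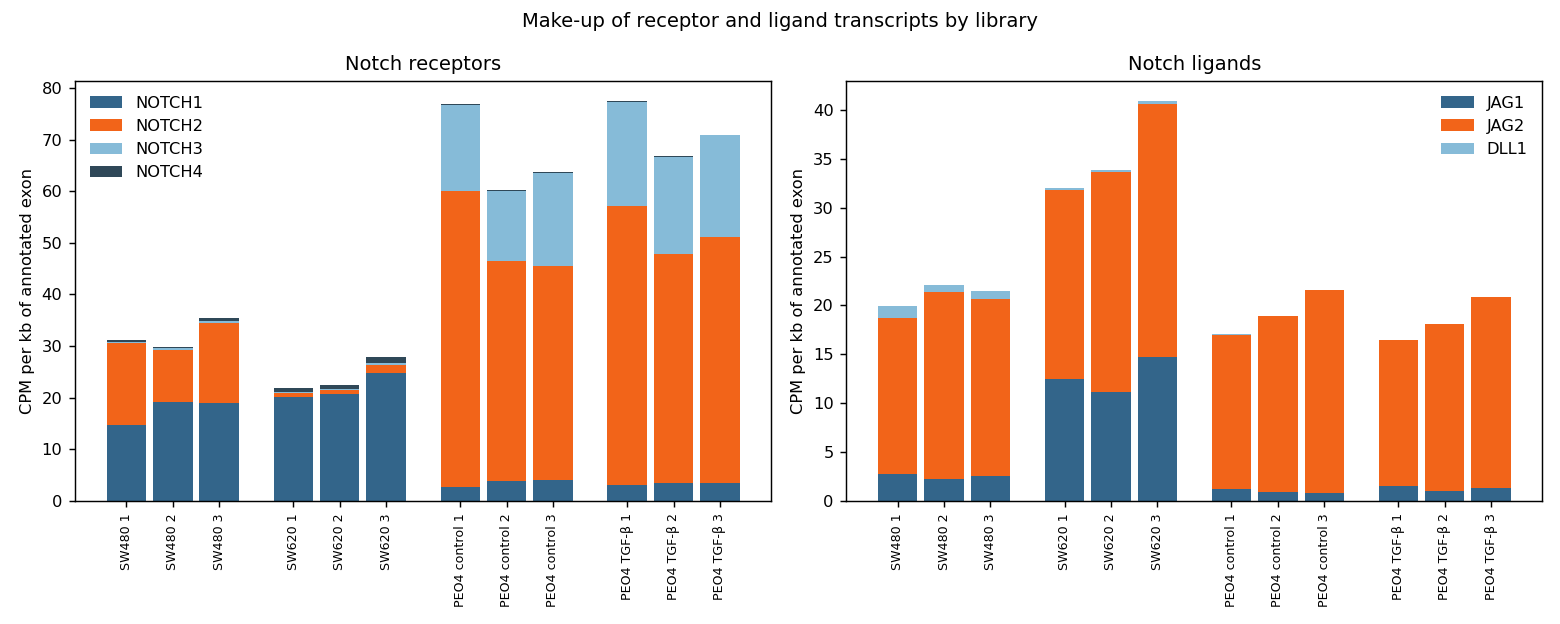
TMM-scaled CPM per kilobase of exon in each of the 12 libraries, stacked by gene for the receptors (left) and the ligands (right; 1 bar per library, linear axes from 0). NOTCH1 fills 91.2% of the receptor bars in SW620 on average and NOTCH2 fills 70.2% in PEO4 control, while JAG2 is the main ligand in all 4 groups.

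Of the 3 target genes, HEYL passed the test. HEYL (ENSG00000163909, GRCh38 chr1:39624153-39639945, minus strand), a bHLH repressor, was at 6.44, 5.50 and 11.6 CPM in SW480 and at 2.01, 2.56 and 3.03 CPM in SW620. The SW620 libraries were all below the SW480 libraries. HEYL fell by 1.65 ± 0.34 (log2, SE, 95% interval -2.42 to -0.88), a 3.15-fold lower level (edgeR adjusted p = 0.00559). HEY1, from the same family, was at 2.03, 3.31 and 3.30 CPM in SW480 and at 2.55, 2.84 and 3.37 CPM in SW620. These values overlapped, with a log2 fold change of -0.01 ± 0.33 (SE, 95% interval -0.76 to 0.73; edgeR adjusted p = 0.981).

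HES1 (ENSG00000114315, GRCh38 chr3:194136145-194138732, plus strand), the repressor that holds back secretory differentiation in the crypt, was the most abundant target, at 92.1% to 98.2% of the summed CPM per kilobase of the 3 targets. It was at 89.9, 56.1 and 221 CPM in SW480 and at 48.9, 19.6 and 87.6 CPM in SW620. The groups overlapped, and the highest library was 3.94 times the lowest within SW480 and 4.46 times within SW620. The log2 fold change of -1.26 ± 0.57 (SE, 95% interval -2.55 to 0.025) did not pass (edgeR adjusted p = 0.130). It moved with the libraries left out: it was -1.85 without SW620 replicate 3, which passed (edgeR adjusted p = 0.0300), and -0.54 without SW480 replicate 3 (edgeR adjusted p = 0.517). With no filter on low counts HES1 passed too (edgeR adjusted p = 0.00472). Replicate 2 was the lowest and replicate 3 the highest in both lines. With a replicate block HES1 passed as well (edgeR adjusted p = 8.29e-07), but replicate numbers were not taken as pairs. Over all tested genes, deviations of SW480 replicate 1 from its line mean correlated at 0.02 with SW620 replicate 1. With SW620 replicate 3 they correlated at 0.27. Same-numbered replicates 2 and 3 were at 0.67 and 0.57.

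**Figure D3:**
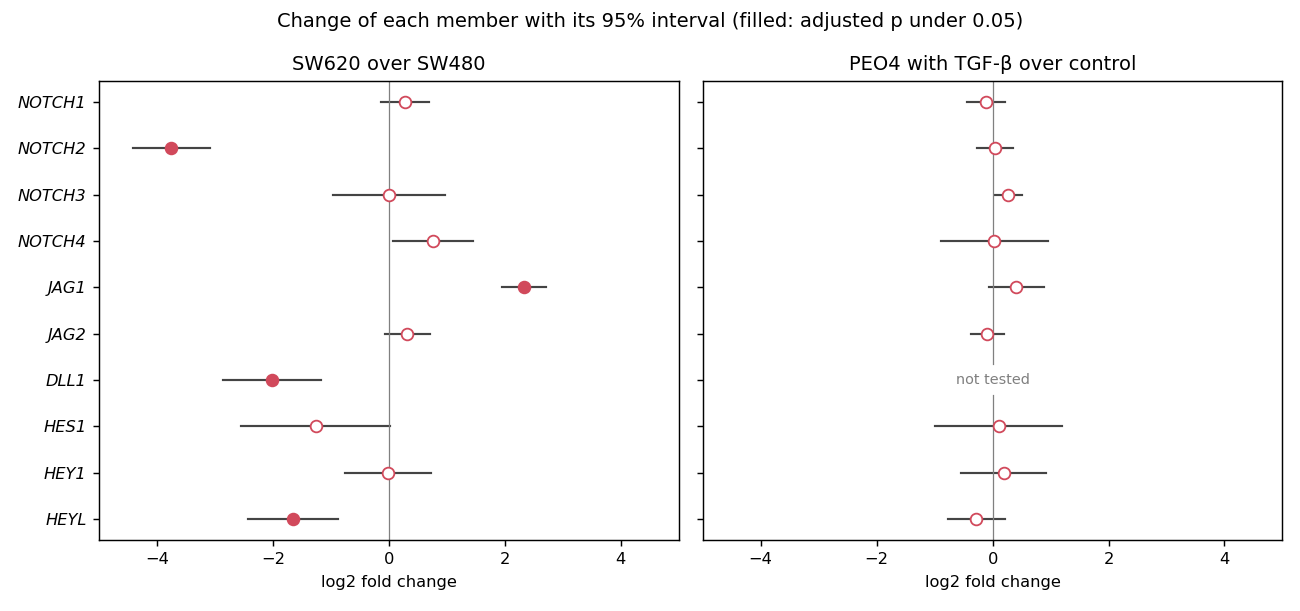
Log2 fold changes of the 10 genes with 95% intervals from edgeR's quasi-likelihood fit, SW620 over SW480 and PEO4 with TGF-β over control. JAG1 at 2.33 and NOTCH2 at -3.75 lie farthest from 0 in the colorectal comparison, filled points passed the test, and of the 9 genes tested in PEO4 the intervals of all but NOTCH3 reach across 0.

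TGF-β changed none of the 10 genes past the threshold in PEO4. Of the 9 genes with enough counts, 0 passed edgeR's test, against 2.26% of the 19064 genes tested, and 0 passed with DESeq2 or limma-voom. At an unadjusted p under 0.05 there was 1, NOTCH3, against 16.7% of all genes. The groups did not overlap for NOTCH3 alone, against 21.3% of all genes. The median log2 fold change of the 9 was 0.04, beside -0.02 over all genes tested. The authors' deposited table of this comparison listed the same 9 and put 0 of them past an adjusted p of 0.05.

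NOTCH3 was at 156, 129 and 169 CPM in PEO4 control and at 190, 176 and 186 CPM with TGF-β. All 3 treated libraries were above the controls, by a log2 fold change of 0.27 ± 0.10 (SE, 95% interval 0.04 to 0.50; unadjusted p = 0.0282, edgeR adjusted p = 0.236). NOTCH2, the main receptor in this line, was at 965, 715 and 699 CPM in control and at 911, 748 and 800 CPM with TGF-β. The 2 groups covered the same range, with a difference of 0.04 ± 0.14 (log2, SE; edgeR adjusted p = 0.921). NOTCH1 was at 28.2, 40.3 and 40.9 CPM in control and at 30.6, 35.6 and 35.9 CPM with TGF-β, again overlapping (-0.11 ± 0.15, log2, SE; edgeR adjusted p = 0.751). NOTCH4 stayed between 0.677 and 1.91 CPM in all 6 libraries.

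Of the ligands, JAG1 was at 10.9, 8.16 and 6.94 CPM in control and at 13.7, 9.01 and 12.03 CPM with TGF-β. The groups overlapped, and the log2 fold change was 0.41 ± 0.21 (SE, 95% interval -0.07 to 0.88; edgeR adjusted p = 0.376). JAG2 was at 101, 115 and 133 CPM in control and at 96.0, 110 and 125 CPM with TGF-β, a difference of -0.09 ± 0.13 (log2, SE; edgeR adjusted p = 0.767). DLL1 had 4, 0 and 2 counts in control and 0, 0 and 1 with TGF-β, at or near the floor, and was not tested. Of the targets, HES1 was at 364, 321 and 105 CPM in control and at 340, 396 and 119 CPM with TGF-β. Replicate 3 was the lowest in both groups, the highest library was 3.47 and 3.32 times the lowest within them, and the difference of 0.10 ± 0.48 (log2, SE, 95% interval -0.99 to 1.19) did not pass (edgeR adjusted p = 0.939). HEYL was between 4.45 and 8.40 CPM and HEY1 between 0.932 and 1.55 CPM over the 6 libraries, with overlapping groups.

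Across all 4 groups, the order of levels differed from receptor to receptor. NOTCH1 was highest in SW620, followed by SW480 and then by the 2 PEO4 groups, whose ranges overlapped. NOTCH2 ran in nearly the opposite order: the PEO4 groups overlapped at the top, the mean of the lower of them was 3.41 times that of SW480, and SW620 was lowest. For NOTCH3 the mean of PEO4 control was 57.8 times that of SW620, which overlapped with SW480. Per kilobase, the 4 receptors summed to 67.0 ± 8.74 CPM per kb in PEO4 control and 71.8 ± 5.42 with TGF-β (SD, n = 3). In control NOTCH2 made up 70.2 ± 4.74% of that sum, NOTCH3 24.2 ± 3.55% and NOTCH1 5.39 ± 1.61%. No test was made across these lines.

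JAG1 was highest in SW620 and SW480, in that order and without overlap, and lower in the PEO4 groups, which overlapped with each other. For JAG2 and for HES1 all neighbours in the order overlapped. DLL1 was above the floor in each colorectal library, and highest in SW480. HEYL overlapped between SW480 and the PEO4 groups and was lowest in SW620, and HEY1 was higher in the colorectal lines than in PEO4 without overlap.

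The genes whose log2 CPM followed each role's most abundant member most closely were sought among 11640 protein-coding genes with a mean of at least 5 CPM. For NOTCH2 they were EHD2 (Pearson r = 0.999) and ITGA3 (0.998), and 435 genes had an r above 0.95. For JAG2 they were LPXN, MMAB and DDX51, with r of 0.885, 0.885 and 0.880. HES1 was followed most closely by MOAP1, KRT19 and SLC4A1AP, with r of 0.970, 0.958 and 0.956. Each r is a description over the same 12 libraries, which fall into 3 lines, so that differences between lines enter all of them.

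The other genes of the pathway were taken from 6 lists with 60 genes, of which 57 were tested in the colorectal comparison. Of these, 5 rose and 18 fell, against 13.5% and 17.0% of all genes tested, and the groups did not overlap for 29, against 43.6% of all genes. Their median log2 fold change was -0.26, beside 0.03 over all genes. After the GC correction the median was -0.10, beside 0.14 over all genes, and 6 rose and 14 fell. Of the 4 tested other ligands, 1 rose and 2 fell. DLL4, a Delta-type ligand known from sprouting vessels, was at 1.69, 3.59 and 3.51 CPM in SW480 and at 25.5, 24.6 and 36.6 CPM in SW620, and rose by 3.27 ± 0.31 (log2, SE; edgeR adjusted p = 7.20e-05). DLL3, a divergent Delta-type protein, fell by 1.47 ± 0.26 (edgeR adjusted p = 0.00276). DNER, a ligand-like transmembrane protein, had 33 to 51 counts in SW480 and 0 to 1 in SW620, at least 14.0-fold lower against a floor of 3 counts per library (edgeR adjusted p = 0.000302). The endothelial marker sums given for NOTCH4 stand beside DLL4 as well, and their part in its rise was not tested.

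The counts of the next 4 lists stand against the same 13.5% higher and 17.0% lower over all genes, or 30.5% in either direction. Of 5 genes for sugar transfer to Notch, 2 rose and 0 fell. MFNG, a Fringe enzyme that extends O-fucose on the receptors and alters which ligands they answer to, was at 0.496, 1.01 and 1.39 CPM in SW480 and at 111, 85.9 and 162 CPM in SW620. The lines were far apart, with a log2 fold change of 6.91 ± 0.38 (SE; edgeR adjusted p = 5.34e-06). The summed level of 8 immune markers was 9.07 to 10.3 CPM in SW480, where PTPRC was at or under the floor, and 25.3 to 52.6 CPM in SW620. Of the 5 tested, 1 rose, CD4, by 2.59 ± 0.26 (log2, SE; edgeR adjusted p = 9.94e-05), and 1 fell, CD8A, by 1.59 ± 0.42 (edgeR adjusted p = 0.0198). The sum of 6 fibroblast markers was 3.17 to 3.31 CPM in SW480, where PDGFRA and DCN were at or under the floor, and 8.69 to 18.1 CPM in SW620, with LUM, the 1 called of 4 tested, higher by 4.71 ± 0.47 (edgeR adjusted p = 9.48e-05). Their part in the MFNG values was not tested. POGLUT1, which adds O-glucose, rose by 0.69 ± 0.15 (edgeR adjusted p = 0.00798). Of 9 proteases and γ-secretase subunits, 0 rose and 3 fell, among them FURIN and ADAM17, by 1.05 and 0.78 on the log2 scale. ADAM17 shares 1323 of its 10750 exon bases with IAH1 on the opposite strand. ADAM10, the main ligand-dependent cleaving enzyme, did not pass (0.28 ± 0.22, edgeR adjusted p = 0.388). Of 13 ubiquitin ligases and endocytic regulators, NEURL1B and NUMB fell, by 1.06 and 0.56, and 0 rose. Of 14 members and partners of the RBPJ complex, L3MBTL3 rose by 1.71 and MAML3, KAT2B and MAML1 fell by 0.99, 0.87 and 0.61, while RBPJ itself did not pass (0.62 ± 0.23, edgeR adjusted p = 0.0728). Some of the smaller changes lost their calls with fewer libraries, with folds of the same sign. NUMB and MAML1 lost their calls without SW480 replicate 1 (edgeR adjusted p = 0.145 and 0.106), without SW480 replicate 3 (0.154 and 0.115), without SW620 replicate 1 (0.200 and 0.131) and without SW620 replicate 2 (0.0701 and 0.0593), and after the GC correction (0.194 and 0.127), at log2 fold changes of -0.43 to -0.70 for NUMB and -0.47 to -0.74 for MAML1 over all libraries left out in turn. With no count filter neither passed (0.0781 and 0.0568), and with DESeq2 NUMB did not (DESeq2 adjusted p = 0.0725). FURIN and MAML3 lost theirs without SW620 replicate 1 (0.0687 and 0.0556), and POGLUT1 without SW480 replicate 3 (0.0530).

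Of 12 tested other HES and HEY genes, Notch targets and TLE corepressors, 1 rose and 8 fell, against 13.5% and 17.0% of all genes tested. HES5, a HES repressor, was at 1.69, 4.60 and 14.1 CPM in SW480 and at 0.0491, 0.0546 and 0.578 CPM in SW620. The groups did not overlap, and HES5 fell by 4.86 ± 0.99 (log2, SE; edgeR adjusted p = 0.00532), with log2 fold changes of -6.89 without SW620 replicate 3 and -3.79 without SW480 replicate 3. HEY2, the third HEY repressor, was at 5.45, 5.66 and 8.82 CPM in SW480 and at 0.687, 0.164 and 0.674 CPM in SW620, and fell by 3.71 ± 0.48 (edgeR adjusted p = 0.000471). TLE4 and TLE1, Groucho-type corepressors of HES proteins, fell by 5.38 ± 0.61 and 4.06 ± 0.49 (edgeR adjusted p = 0.000203 and 0.000302). Without SW620 replicate 3 these were -6.03 and -5.02, and TLE4 was -4.76 without SW620 replicate 1. At 1.21% of its PEO4 level TLE1 would have 55.9% of the 21 counts found in SW620 replicate 3, and at the lower percentages of replicates 1 and 2 it would have 67.6% and 61.9% of the 5 counts found in each. A pair of genes outside the naming rule is given after its values were seen. NRARP, a feedback inhibitor of Notch, was at 45.2, 34.8 and 70.2 CPM in SW480 and at 4.51, 5.46 and 6.74 CPM in SW620, and fell by 3.19 ± 0.28 (edgeR adjusted p = 4.60e-05). HES6, which opposes HES1 and was the 1 riser of this list, was at 6.74, 9.03 and 9.96 CPM in SW480 and at 48.1, 43.0 and 75.1 CPM in SW620, and rose by 2.65 ± 0.25 (edgeR adjusted p = 6.97e-05).

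**Figure D4:**
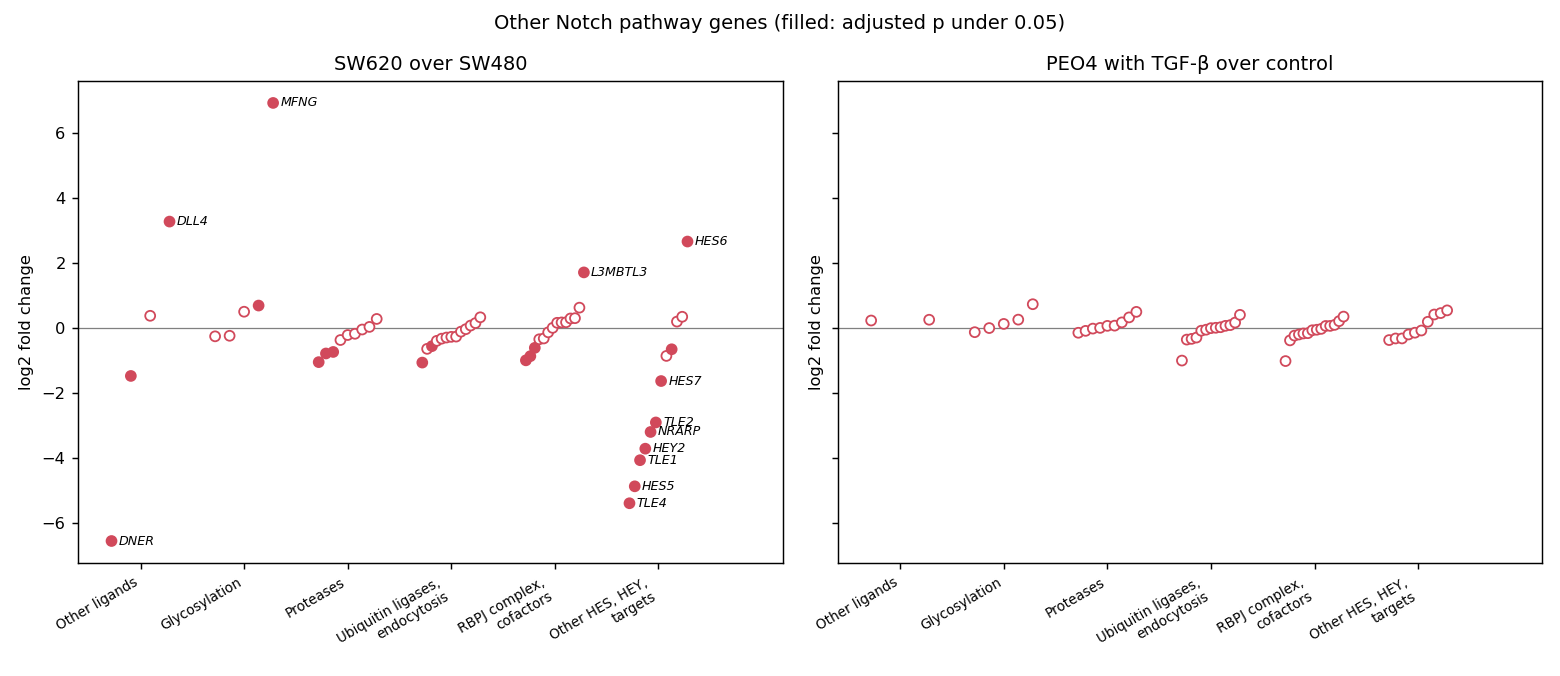
Log2 fold changes of the tested genes of the 6 other pathway lists, SW620 over SW480 and PEO4 with TGF-β over control, 1 point per gene in a column per list, with filled points for genes past an adjusted p of 0.05. In the colorectal comparison MFNG at 6.91 and DLL4 at 3.27 are the highest points, while in PEO4 0 of 53 points are filled. The last column holds TLE corepressors beside other HES, HEY and target genes. In the colorectal comparison 8 of its 12 genes fell, among them the corepressors TLE1, TLE2, TLE3 and TLE4. The fitted DNER value depends on the prior count, since that gene is at 0 to 1 counts in SW620.

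In PEO4, 53 of the 60 genes were tested and 0 passed edgeR's test with TGF-β, against 2.26% of all genes. At an unadjusted p under 0.05 there were 13, against 16.7% of all genes. With DESeq2 2 passed, and with limma-voom 0, and leaving out PEO4 control replicate 1 gave 2 with edgeR. The smallest adjusted p was that of FURIN, 0.0715, with 84.6 ± 13.6 CPM in control and 120 ± 10.6 CPM with TGF-β (SD, n = 3).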

How the data were processed

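The authors deposited raw counts per Ensembl gene, the unit used for all fits here. The submitters' processing notes list Trimmomatic 0.36, STAR 2.5.2b, featureCounts of Subread 1.5.2, DESeq2 and build GRCh38. The annotation and the strand setting are not given in the sources used here, so reads of overlapping genes may be shared. The authors' deposited tables hold log2 fold changes and p-values, per the file headers, and normalised signal (counts divided by a size factor per library), which was not used for tests. Columns were matched to samples by name, and 0 per-sample columns stayed unmatched.

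Counts were tested per comparison with edgeR 4.0.16 in R 4.3.3 (filterByExpr, TMM factors, quasi-likelihood test, two-sided, Benjamini-Hochberg over all genes tested). Intervals are 95% and use the test's degrees of freedom. DESeq2 1.42.0, limma-voom (limma 3.58.1), other scalings and filters, a GC correction, 1 model of all 12 libraries, a replicate block and leaving out each library were alternatives. Fits were tested on simulated data. Exon lengths, overlaps and positions came from GENCODE 29 on GRCh38. Of the other pathway genes, those past the threshold were named, at most 4 per list with the largest changes and at least 1 CPM in the higher group. A few genes that the naming rules select are not reported here. The members and lists were chosen with earlier results of these data known. The limits of the carry-over measure, promoter words and the sequences shown were chosen after the data were seen, as a stricter first pair of limits found 0 genes. P-values set the difference between groups against the spread between the 3 biological replicates of a group, estimated with information shared over genes. Precision is limited by the number of replicates and by counts near the floor of 3.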

Additional observations from a re-analysis of the deposited data

How the results depend on the processing

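NOTCH2, JAG1, DLL1 and HEYL kept their direction and their call in the colorectal comparison under all 17 alternatives, and the authors' deposited table gave the same 4. Leaving out 1 library at a time gave 4 to 5 called genes of the 10, 17 to 25 of the other pathway genes and 4254 to 7419 of all genes, the lowest without SW480 replicate 1. In PEO4 the same gave 0 of the 10, 0 to 2 pathway genes and 72 (without control replicate 2) to 1080 (without control replicate 1) of all genes. Other settings moved the PEO4 counts: DESeq2 called 2 pathway genes and 922 of all genes, upper-quartile factors 1 pathway gene, no count filter 3 pathway genes and 1457 of all genes, and 1 model of all 12 libraries 159 of all genes. The GC correction moved the median log2 fold change of all genes in the colorectal comparison from 0.03 to 0.14. Levels per kilobase depend on the length used: with the longest transcript in place of all exons, NOTCH2 in PEO4 control was at 69.6 in place of 47.2 CPM per kb.

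Replicate numbers were not taken as pairs. Deviations of same-numbered libraries correlated at 0.02, 0.67 and 0.57 in the colorectal lines and at 0.29, -0.14 and 0.48 in PEO4. Not every library correlated best with its own number. With a replicate block the colorectal calls were 7 of the 10 (HES1, at an edgeR adjusted p of 8.29e-07, NOTCH4 and JAG2 added), 36 pathway genes and 10667 of all genes. With the block and the GC correction they were 8 (NOTCH1 added as well), 36 (15 higher and 21 lower) and 11314. The block gave 1 of the 10 in PEO4, NOTCH3 (edgeR adjusted p = 0.0400), with 10 pathway genes and 2102 of all genes, or 6 and 1698 with the GC correction as well.

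Genes near 0 and not called changed sign. NOTCH3 in the colorectal comparison was 0.020 with DESeq2, 0.018 with limma-voom, 0.0055 with RLE factors, 0.0063 with no filter, 0.051 in the model of all libraries and 0.21 with the GC correction, with or without the block, and ranged from -0.39 to 0.25 with libraries left out. HEY1 was 0.025 with limma-voom, 0.020 with total counts, 0.021 in the model of all libraries, 0.0077 with the block, 0.12 with the GC correction and 0.13 with both, with a range of -0.18 to 0.11. In PEO4, NOTCH4 was -0.0017 with upper-quartile factors and -0.016 with the GC correction, with a range of -0.30 to 0.27. The ranges with libraries left out were -0.044 to 0.22 for NOTCH2, -0.19 to 0.028 for JAG2 and -0.27 to 0.47 for HES1. The cause was not tested. DLL1 in PEO4, at 0 to 4 counts, is limited by depth.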

Other observations

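A list of intestinal secretory lineage genes, a lineage that Notch activity is known to hold back, was also read in the colorectal lines. Of 12 such genes, 8 were tested, of which 2 rose and 3 fell in SW620, against 13.5% and 17.0% of all genes tested. ATOH1, the factor that sets the secretory fate, was at or under the floor in all 4 groups. TFF3, a goblet cell peptide, was at 0.297, 0.449 and 0.413 CPM in SW480 and at 17.7, 16.7 and 40.5 CPM in SW620, and rose by 5.96 ± 0.45 (log2, SE; edgeR adjusted p = 2.26e-05). ASCL2, the other riser, is known as a stem cell factor rather than a secretory one, and rose by 0.95 ± 0.25 (edgeR adjusted p = 0.0197). The Paneth cell defensin DEFA5 fell by 4.38 ± 0.71 (edgeR adjusted p = 0.00157), from 86 to 118 counts in SW480 to 0 to 11 in SW620. DEFA6 had 12 to 25 counts in SW480 and 0 in each SW620 library, at least 5.74-fold lower against the floor of 3 counts per library (edgeR adjusted p = 0.00259). NEUROD1, an enteroendocrine factor, had 19 to 35 counts in SW480 and 2 to 3 in SW620, at least 9.14-fold lower by the same floor (edgeR adjusted p = 0.00120). These genes were taken after their values were seen, from a list written with earlier results known.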
